A study of Drosophila melanogaster with 12 samples.

Results

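Selected from 13966 probe sets on the array were 10 transcripts with a CG number as gene symbol. They were higher in cultured larval organs given 20-hydroxyecdysone (20E) plus cycloheximide than in organs given cycloheximide alone. With 20E by itself they showed no increase of 15% or more over the level without hormone. A CG number is the symbol of a Drosophila gene predicted from the genome, and it names no phenotype or product. Among RefSeq synonyms, CG4998 also carries SPH66 and CG4914 carries SP39. The 10 probe sets were chosen by measured values: a single gene symbol of this form, a mean intensity of at least 50 in at least 1 group, a ratio of group means of at least 1.3 for 20E plus cycloheximide over cycloheximide with no overlap of arrays, and a mean with 20E less than 15% above that with no hormone. Of 4911 CG-numbered probe sets, 4198 reached the level and 57 of these met the conditions on 20E plus cycloheximide. The limit on 20E alone left out 47 of the 57. Because both comparisons with 20E selected the members, their values in those comparisons are a description, and no test is given for them.

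RNA was taken from organs dissected from w1118 wandering larvae of the last instar with a partially blue gut, which marks animals approaching puparium formation. The organs of 8 animals shared a culture in Schneider's medium at 25 °C, were preincubated for 1 h, and then received 6 h of medium alone (no hormone), 5 µM 20E, 85 µM cycloheximide, or both agents. Each of the 4 groups had 3 separately harvested cultures and so 3 arrays. All groups, the no hormone group included, had been dissected and cultured, and each array mixed all organs of the dish.

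20E is the steroid that triggers molting and metamorphosis in insects. It binds a receptor made of EcR and its partner Usp, and the receptor switches on primary-response genes without new protein, many of them transcription factors that act on secondary-response genes in turn. Cycloheximide stops protein synthesis, so that a transcript induced by 20E in its presence needs no newly made protein, and it can also raise transcripts that short-lived proteins repress or destabilise.

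The members were not all alike when set beside organs that had received neither agent. CG4998, CG12290 and CG30089 stood 1.77-, 1.65- and 1.39-fold above no hormone when both agents were present. For the other 7 members, the mean with cycloheximide alone lay below no hormone, at 0.75 to 0.91 times its level, and the mean with both agents lay at 1.01 to 1.25 times no hormone. With both agents, 3 of these 7, CG4914, CG14570 and CG13856, still had every array above the no hormone arrays, and the other 4 overlapped them. The plot of the intensities by array shows the 4 groups of each member.

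**Figure D1:**
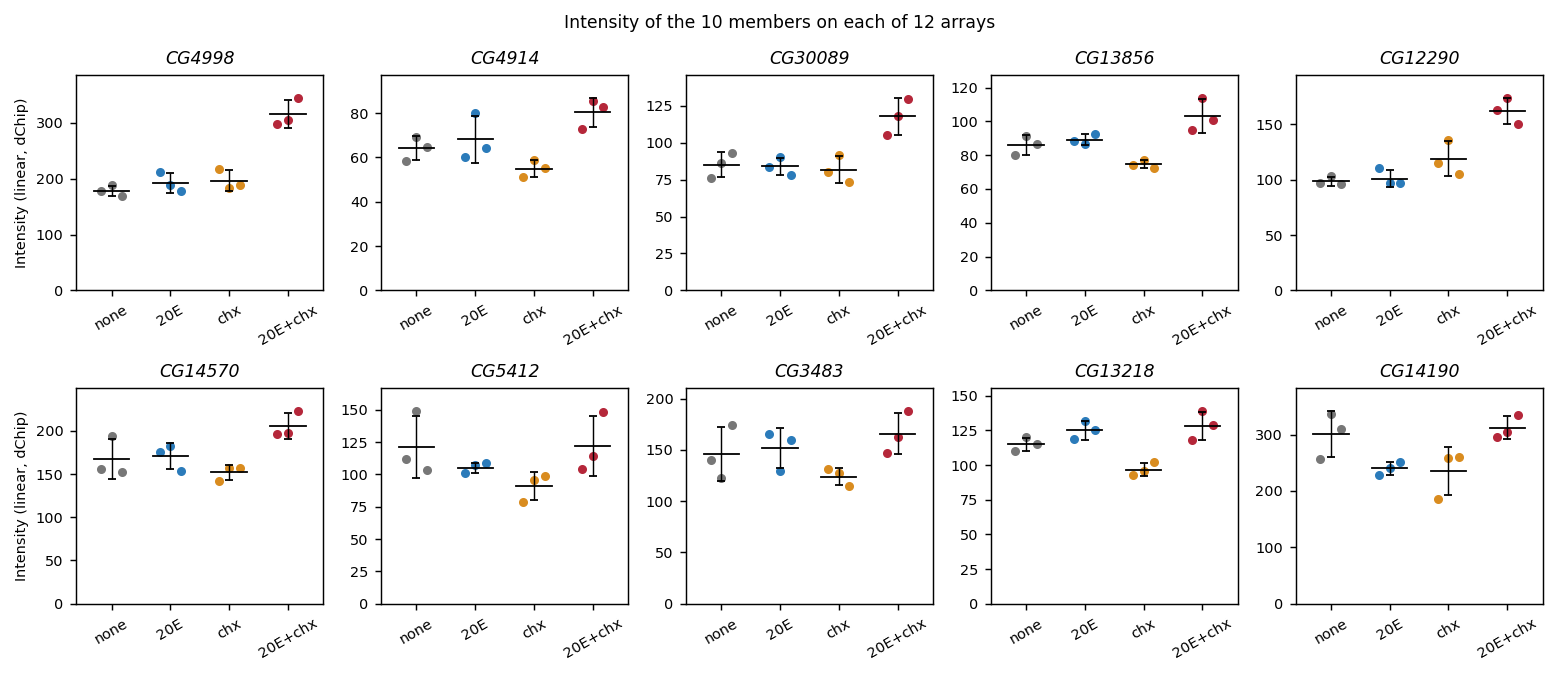
Linear dChip intensity (y axis, starting at 0) of the 10 members in organs with no hormone (none), 20E, cycloheximide (chx) or both (x axis). Each point is 1 array, horizontal lines are means and bars are 1 SD (n = 3). Every array with both agents lies above all other arrays for CG4998, CG12290, CG30089, CG14570 and CG13856. Of these, CG4998, CG12290 and CG30089 have a mean at least 1.3-fold above no hormone. CG5412 and CG14190 return to about the level without hormone.

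Intensities are the linear expression values that dChip computed from the probes of a set. They compare arrays for 1 probe set and do not rank different genes. Comparisons that the rule did not set directly were tested with limma on log2 intensities, and a probe set was called at a Benjamini-Hochberg adjusted p under 0.10, over all 13966 probe sets, with at least a 1.3-fold change. All 12 arrays of these tests also entered the rule. It favours low cycloheximide arrays and high arrays with both agents, so the calls below are not independent of the choice of members.

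Against no hormone, 3 of the 10 members were called higher with 20E plus cycloheximide and 0 lower. Of all probe sets, 3.16% were called higher and 1.06% lower in this comparison. At an unadjusted p under 0.05, 6 members were higher and 0 lower, beside 8.58% and 6.31% of all probe sets. SAM, a permutation-based test run as an alternative, called 3 members higher, beside 3.94% of all probe sets higher and 0.831% lower.

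CG4998, which encodes a serine protease homologue (SPH66 among its RefSeq synonyms), had the highest ratio of the 10 for 20E plus cycloheximide over cycloheximide, 1.61. Its intensities were 178, 188 and 169 with no hormone, 212, 188 and 178 with 20E, 218, 183 and 188 with cycloheximide, and 298, 305 and 345 with both. All 3 arrays with both agents lay above the other 9, which overlapped one another. The group means were 178 ± 9.22 (SD, n = 3), 192 ± 17.6, 196 ± 18.9 and 316 ± 25.7. Its log2 fold change against no hormone was 0.82 ± 0.09 (SE) with both agents (limma adjusted p = 0.000414) and 0.14 ± 0.09 with cycloheximide alone (adjusted p = 0.424).

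CG12290, a predicted G protein-coupled receptor, was the member whose cycloheximide arrays all lay above the no hormone arrays. It read 96.8, 103 and 95.7 with no hormone, 111, 97.1 and 96.6 with 20E, 115, 136 and 105 with cycloheximide, and 163, 174 and 150 with both. The arrays thus stepped up with cycloheximide and again with both agents, while 20E alone overlapped no hormone. The means were 98.4 ± 3.70, 101 ± 7.99, 119 ± 15.9 and 162 ± 12.1 (SD, n = 3). CG12290 rose by 0.72 ± 0.10 (SE) on the log2 scale with both agents over no hormone (limma adjusted p = 0.00142). With cycloheximide alone the difference was 0.26 ± 0.10 (adjusted p = 0.159), which was not called.

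CG30089, for which no role is given here, has 3 probe sets on the array, and 1 of them is a member. The member probe set read 76.0, 86.3 and 92.9 with no hormone, 83.6, 90.1 and 78.5 with 20E, 80.4, 91.7 and 73.4 with cycloheximide, and 105, 118 and 130 with both. Only the arrays with both agents stood apart. Its means were 85.1 ± 8.53, 84.1 ± 5.77, 81.8 ± 9.21 and 118 ± 12.6 (SD, n = 3). The log2 fold change of both agents over no hormone was 0.47 ± 0.11 (SE, limma adjusted p = 0.0332). This call was lost without no hormone replicate 1 (0.39, adjusted p = 0.117) and without 20E plus cycloheximide replicate 3 (0.39, adjusted p = 0.106), and the adjusted p lay between 0.0203 and 0.117 over all alternatives.

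A brighter probe set of CG30089, 154882_at, also rose with both agents, by less over cycloheximide and by about as much over no hormone. It read 217, 213 and 209 with no hormone, 239, 234 and 215 with 20E, 244, 230 and 236 with cycloheximide, and 278, 269 and 334 with both. Its arrays with both agents lay above all others, at 1.24 times cycloheximide, under the 1.3 of the rule. Unlike on the member probe set, its cycloheximide arrays all lay above its no hormone arrays. It was called higher with both agents than with no hormone, by 0.46 ± 0.08 (SE) on the log2 scale (limma adjusted p = 0.00792), and not against cycloheximide (0.30 ± 0.08, adjusted p = 0.147). The remaining probe set of CG30089, 147261_at, read 233, 250 and 308 with no hormone, 271, 252 and 256 with 20E, 208, 259 and 249 with cycloheximide, and 226, 289 and 289 with both. Its groups overlapped, and its log2 difference from no hormone was 0.02 ± 0.13 (adjusted p = 0.965). The selected behaviour of CG30089 was therefore seen on 1 of its 3 probe sets in full and on another in part. RefSeq lists CG12305, CG12966 and CG12967, earlier predictions, among its synonyms, and which stretch of the gene each probe set reads was not analysed here.

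**Figure D2:**
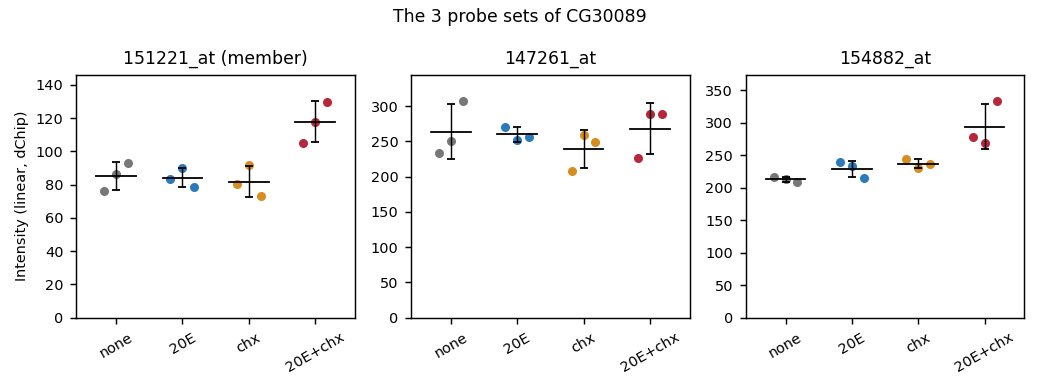
Linear dChip intensity (y axis, starting at 0) of the 3 probe sets of CG30089 in the 4 groups (x axis), with a point per array, the mean as a line and 1 SD as a bar (n = 3). The arrays with both agents stand above all others on 151221_at, the member, and on 154882_at, and overlap them on 147261_at.

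Of the remaining 7 members, CG4914, CG14570 and CG13856 came closest to these 3. CG4914, a serine protease (SP39 among its synonyms), read 58.6, 69.2 and 64.9 with no hormone, 60.3, 80.2 and 64.1 with 20E, 51.0, 58.7 and 55.3 with cycloheximide, and 73.0, 85.4 and 82.8 with both. Its arrays with both agents exceeded those with no hormone but overlapped those with 20E. The means were 64.2 ± 5.33, 68.2 ± 10.6, 55.0 ± 3.82 and 80.4 ± 6.57 (SD, n = 3). Against no hormone the log2 difference was 0.32 ± 0.11 (SE) with both agents (limma adjusted p = 0.164) and -0.22 ± 0.11 with cycloheximide (adjusted p = 0.277).

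CG14570 read 156, 194 and 152 with no hormone, 176, 183 and 154 with 20E, 142, 157 and 157 with cycloheximide, and 196, 198 and 223 with both. The 3 highest arrays were those with both agents, with no hormone replicate 2 close behind them. Its means were 167 ± 23.2, 171 ± 15.3, 152 ± 8.75 and 206 ± 15.1 (SD, n = 3), and its log2 difference between both agents and no hormone was 0.30 ± 0.10 (SE, limma adjusted p = 0.161). Without no hormone replicate 2 it was called.

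CG13856 read 80.0, 91.5 and 86.6 with no hormone, 88.2, 86.6 and 92.7 with 20E, 74.1, 77.0 and 72.6 with cycloheximide, and 94.8, 114 and 101 with both. Its cycloheximide arrays were the 3 lowest and its arrays with both agents the 3 highest. The means were 86.0 ± 5.80, 89.2 ± 3.15, 74.6 ± 2.26 and 103 ± 9.97 (SD, n = 3). With both agents its log2 difference from no hormone, 0.26 ± 0.08 (SE), had a limma adjusted p of 0.0996 but was under 1.3-fold, and with cycloheximide alone it was -0.20 ± 0.08 (adjusted p = 0.17). By Northern blot of staged animals, the paper reported normal induction of CG13856 at puparium formation with and without RNA interference against EcR.

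The last 4 members, CG5412, CG3483, CG13218 and CG14190, overlapped the no hormone group when both agents were present. CG5412, which encodes an esterase, read 112, 149 and 103 with no hormone, 101, 107 and 109 with 20E, 78.6, 95.3 and 98.8 with cycloheximide, and 104, 114 and 148 with both. It was the only member at least 1.3-fold lower with cycloheximide than with no hormone with no overlap of arrays. Its means were 121 ± 24.0, 105 ± 4.03, 90.9 ± 10.8 and 122 ± 23.2 (SD, n = 3). The log2 difference from no hormone was -0.40 ± 0.15 (SE) with cycloheximide (limma adjusted p = 0.16) and 0.01 ± 0.15 with both agents (adjusted p = 0.99).

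CG14190 read 257, 337 and 310 with no hormone, 228, 240 and 252 with 20E, 186, 258 and 261 with cycloheximide, and 296, 304 and 335 with both. Both single-agent groups were low, and it was the only member whose 20E and no hormone arrays did not overlap, with 20E the lower at a ratio of 0.80. Its means were 301 ± 41.0, 240 ± 11.6, 235 ± 42.7 and 312 ± 20.5 (SD, n = 3). Both agents together differed from no hormone by 0.06 ± 0.13 (SE) on the log2 scale (limma adjusted p = 0.907), and cycloheximide alone by -0.37 ± 0.13 (adjusted p = 0.146).

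CG13218 read 110, 120 and 115 with no hormone, 119, 132 and 125 with 20E, 93.0, 95.6 and 102 with cycloheximide, and 118, 139 and 129 with both. The cycloheximide arrays were the 3 lowest, and those with both agents spanned nearly the same range as those with 20E. Its means were 115 ± 4.68, 125 ± 6.73, 96.7 ± 4.45 and 128 ± 10.3 (SD, n = 3). Its log2 difference from no hormone with cycloheximide alone was -0.25 ± 0.07 (SE), with a limma adjusted p of 0.0839 but under 1.3-fold, and both agents differed from no hormone by 0.16 ± 0.07 (adjusted p = 0.353).

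CG3483, of the isocitrate dehydrogenase family, which acts in the citric acid cycle, read 140, 123 and 174 with no hormone, 166, 129 and 160 with 20E, 131, 127 and 115 with cycloheximide, and 147, 163 and 188 with both. Its no hormone arrays overlapped those of every other group. The means were 146 ± 25.9, 152 ± 19.7, 124 ± 8.43 and 166 ± 20.2 (SD, n = 3), and the log2 difference between both agents and no hormone was 0.19 ± 0.14 (SE, limma adjusted p = 0.576). With cycloheximide alone it was -0.22 ± 0.14 (adjusted p = 0.374).

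With cycloheximide alone against no hormone, limma called 0 of the 10 members higher and 0 lower, beside 3.55% and 0.866% of all probe sets. SAM also called 0 in either direction, beside 4.88% higher and 1.09% lower overall. At an unadjusted p under 0.05 there was 1 member higher and 4 lower, beside 10.1% and 11.0% of all probe sets. The median ratio of cycloheximide over no hormone was 0.86 for the members and 0.98 for all probe sets with a group mean of at least 50. It was below 1 for 8 of the 10, a direction that the rule itself favours. Every cycloheximide array lay below every no hormone array for CG13856, CG5412 and CG13218, 3 of 10, which 15.0% of all probe sets also showed. Replicate numbers paired these groups, and within pairs of equal number CG4914 and CG14190 were also lower with cycloheximide in all 3, making 5 of 10 members beside 28.3% of all probe sets. The plot of differences from no hormone sets both comparisons side by side.

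**Figure D3:**
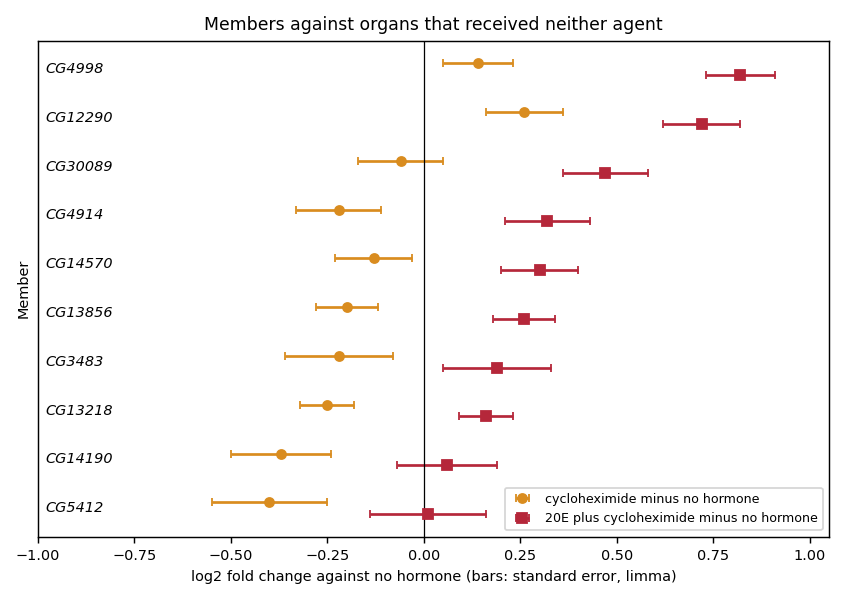
Log2 fold change against no hormone (x axis) of each member (y axis, ordered by the value with both agents) for cycloheximide alone (circles) and for 20E plus cycloheximide (squares), with bars of 1 standard error from limma (3 arrays per group). The squares run from 0.82 for CG4998 to 0.01 for CG5412, and the circles lie below 0 for 8 of the 10 members.

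With both agents, every array lay above every no hormone array for 6 members (CG4998, CG4914, CG30089, CG13856, CG12290 and CG14570), as did 9.54% of all probe sets. Every array with both agents lay above every 20E array for 6 members, beside 8.64% of all probe sets. The median ratio of both agents over no hormone was 1.21 for the members and 0.99 for all probe sets with a group mean of at least 50, and over 20E it was 1.19 and 1.0.

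The 47 CG-numbered probe sets that met the same conditions but lay at least 15% higher with 20E alone than with no hormone differed in level from the 10. Limma called 39 of the 47 higher with both agents than with no hormone, beside 3.16% of all probe sets. With cycloheximide alone, 8 of the 47 were called higher, beside 3.55% of all probe sets. For the 47, the median ratio of cycloheximide over no hormone was 1.09, and that of both agents over no hormone was 1.73. The 10 members had 0.86 and 1.21. The 2 groups were separated by the rule itself, through a ratio over the no hormone mean. The calls and ratios above use the same mean, so they are not independent of the split. The difference between the groups was not tested.

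**Figure D4:**
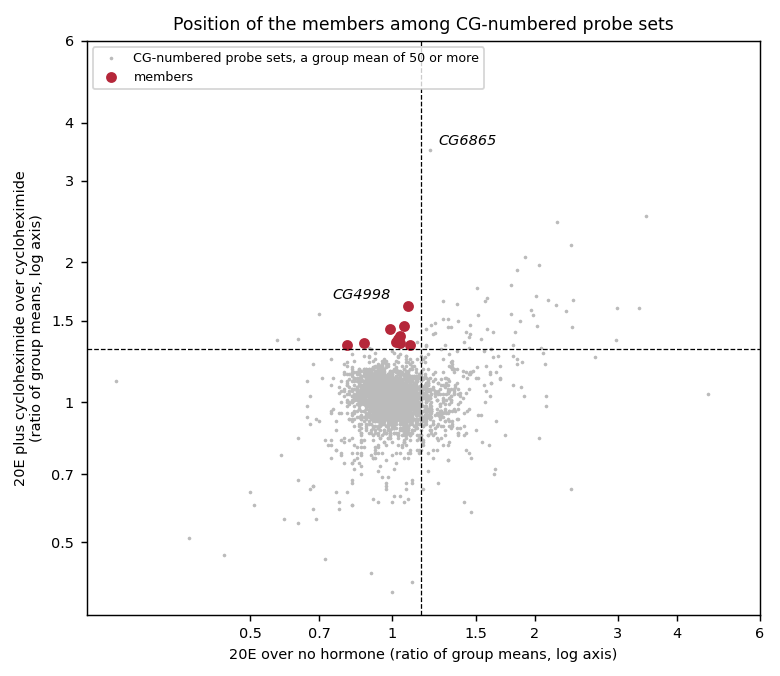
Ratio of group means for 20E over no hormone (x axis, log scale) and for 20E plus cycloheximide over cycloheximide (y axis, log scale) of CG-numbered probe sets with a group mean of at least 50. Dashed lines mark the limits, 15% above no hormone and a ratio of 1.3, members are the large red points, and grey points in the same quadrant had overlapping arrays. The members lie close above the lower limit, from 1.33 to 1.61, and CG6865 at 3.49 stands just beyond the limit on 20E.

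The limit of 1.3 cut through closely spaced ratios. At the limit on 20E alone, no CG-numbered probe set that met the other conditions lay between 1.09 and 1.18. Just inside the limit of 1.3 lay CG14190 and CG13218, both at 1.33, and just outside lay CG31121 at 1.29 (means 334 with cycloheximide and 429 with both agents) and CG42329 at 1.28 (48.1 and 61.6). Next to the limit for 20E alone lay CG13218 at a ratio of 1.09 and CG4998 at 1.08 inside, and CG6048 and CG17834, both at 1.18, outside. CG6865 rose to 3.49 times cycloheximide with both agents (mean 214, beside 67.6, 81.0 and 61.2 in the no hormone, 20E and cycloheximide groups) and was left out because its 20E ratio was 1.2. A further 6 probe sets had the ratios but overlapping arrays, among them CG9877 at 1.55, and CG33510 and CG7579 met all but the minimum level. Without regard to names, 17 probe sets had the same values. The additional 7 were Osi2 (7.46), sxe2 (1.37), Elovl7 (1.31), upd2 (1.3) and 3 with no symbol. Osi2 averaged 83.2 in untreated cultures, 75.5 under 20E, 85.9 under cycloheximide and 641 under both.

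The number of members turned on single arrays. It rose from 10 to 30 without 20E plus cycloheximide replicate 1, and to 26 without cycloheximide replicate 2, in each case with all 10 still included. With an array of these groups left out, the condition of no overlap is also easier to meet. Replicate 1 was the lowest of the 3 arrays with both agents for 9 of the 10 members, CG12290 being the other. The share of all probe sets with this order is not given, so the count describes no trait of the members. Without 20E plus cycloheximide replicate 3 there were again 10 members, of which 6 were the same, and CG14190, CG14570, CG3483 and CG5412 no longer qualified. CG12290 and CG3483 dropped out without cycloheximide replicate 3, CG14190 and CG5412 without cycloheximide replicate 1, and CG13218 without 20E plus cycloheximide replicate 2. The members kept whichever single array was left out were CG4998, CG4914, CG30089 and CG13856. At a ratio of at least 1.5 in place of 1.3, only CG4998 was left.

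The members' intensities lay within the middle range of the arrays. Their highest group means lay between 80.4 and 316, the median of all intensities was 116, and their coefficients of variation within a group were 3.04% to 19.8%, with a median of 8.16%. The array medians lay between 114 and 118. In such mixed organs a lower share of a cell type and less RNA per cell cannot be told apart.

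The 12 lists of cell type markers and the list of genes of the ecdysone response hold only genes with other names. No CG-numbered member could belong to them, so they say nothing about the members' own cell type or hormone response. In the ecdysone list, 30 of 38 names were matched to a probe set by gene symbol. Eip74EF and Eip75B were not among the 30. The paper gives values for both from these organ cultures, so a missing match does not mean a missing probe set. Of the 30, 12 were called higher and 1 lower with 20E plus cycloheximide against cycloheximide (median log2 difference 0.33). With 20E alone, 13 were higher and 1 lower. Of all probe sets, 0.680% were called higher in the first of these comparisons and 1.76% in the second, and shares called lower are not given. Its smallest adjusted p belonged to Cyp18a1, an enzyme that inactivates ecdysteroids, which rose by 3.17 ± 0.19 (SE) on the log2 scale beside cycloheximide (limma adjusted p = 1.32e-05) and by 1.54 ± 0.19 with 20E alone (adjusted p = 0.00238). Blimp-1, a transcriptional repressor, rose by 1.64 ± 0.12 beside cycloheximide (adjusted p = 3.52e-05), and its difference with 20E alone was 0.33 ± 0.12 (adjusted p = 0.229). Hr4, a nuclear receptor, Sox14, cbt and vri, which encode transcription factors, were called higher in both comparisons. In that list, cycloheximide alone against no hormone gave 9 genes higher and 0 lower, beside 3.55% and 0.866% of all probe sets.

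The markers of cell types were read in every group, and the labels call the samples organ cultures in their titles and whole animal in their source field. Testis markers were measured for 36 of 47 genes, 34 of them with a group mean of at least 50. Their summed intensity was 6632 to 9108 with no hormone, 7875 to 10465 with 20E, 6783 to 9972 with cycloheximide and 6741 to 10789 with both. Salivary gland markers, 11 of 14 measured, summed to between 35226 and 46738 on every array, and midgut markers, 35 of 40 measured, to between 108822 and 143207. Among the 8 of 10 trachea markers measured, the sum was 1087 to 1130 with cycloheximide and 1479 to 1805 with both agents, and Osi2 was the only one of them called between these groups. The part of cell composition in the members' values was not tested.

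The genes next to the members in the RefSeq order stayed under the ratio of the rule. Of 20 such neighbours, 16 had a probe set, 20 probe sets in all, whose ratio of 20E plus cycloheximide over cycloheximide lay between 0.87 and 1.17. CG13056, beside CG4998, had means of 119 with cycloheximide and 130 with both, and ome, beside CG4914, had ratios of 1.17 and 0.87 on 2 probe sets.

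By a rule chosen after values were seen, transcripts most like the 3 members called higher with both agents than with no hormone were sought. Likeness was read from log2 intensities over the 12 arrays. The transcripts were taken from 10745 single-gene probe sets with a group mean of at least 50. For CG4998 these were CG30089 on 154882_at (Pearson r = 0.95), CG7142 (0.93), Glut4EF, Blimp-1 and Osi2 (0.92 each). For CG30089 they were CG6094 (0.94), CG30291 and CG12948 (0.93 each), with Osi2 and Blimp-1 at 0.91. For CG12290 they were RhoGAP93B and upd2 (0.91 each), with CG12106, CG3744 and Osi2 at 0.90. Osi2 was thus among the nearest of all 3, although its own ratio was far higher. The 12 arrays fall into 4 groups, so these coefficients mostly describe which group was high, and they are given with no test.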

How the data were processed

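RNA from 12 organ cultures was hybridized to Affymetrix Drosophila Genome Arrays, 1 sample per array. The deposited values are linear intensities that the authors computed and normalized with dChip, 1 for each of 13966 probe sets, with no detection calls. The number of arrays, 3 per group, limits the precision. A probe set took its gene from the platform annotation where it gave exactly 1 symbol (12442), while 327 had several and 1197 none. RefSeq names and gene order (assembly Release 6 plus ISO1 MT) gave synonyms and neighbours, and no coordinates or sequences are printed.

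The rule was applied to the intensities as deposited. For tests, intensities under 10 were set to 10 and log2 values were fitted for the 4 groups together in R 4.3.3, using lmFit, contrasts.fit and eBayes (intensity trend on) of limma 3.58.1, with Benjamini-Hochberg adjustment over all probe sets. The fit was tested on simulated data. The members, the gene lists and the tests were chosen with earlier results of these data known. Values in every array were given for the 10 members with the highest ratio, which are all of them, and for the other probe sets of their genes. Probe sets nearest the thresholds were given by ratios or group means without their spread. The 6 genes of the ecdysone list with the smallest adjusted p were given by log2 differences or by their calls. A list gene with several probe sets was represented by 1 of them. List genes counted as measured are those whose listed name matched the symbol of a probe set, so the others may still be on the array.

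Alternatives were a floor of 50, quantile normalization, centring on array medians, a filter that dropped the dimmest probe sets (a share of 0.333), only the 6 arrays compared, no trend, SAM with 20 permutations, an adjusted p under 0.05, a replicate block, each array left out, and other forms of the rule. Arrays of equal replicate number deviated together for cycloheximide and no hormone, with correlations of 0.414, 0.211 and 0.294 across probe sets, so the numbers pair these groups. For 20E plus cycloheximide and no hormone they were 0.138, -0.0617 and 0.228, and do not. For 20E plus cycloheximide and 20E the correlations at equal number were 0.388, 0.551 and 0.0887. The standard errors and adjusted p of single members came from the fit without the replicate block. Any pair of arrays of a group shared 2 to 8 identical values and correlated at 0.983 to 0.993, so none was counted as a copy.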

Additional observations from a re-analysis of the deposited data

How the results depend on the processing

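The number of members was 10 as reported. It was 1 at a ratio of at least 1.5 and 17 for every probe set whatever its name, an alternative chosen after seeing the data. Leaving out each array in turn gave 10 to 30 members. Group medians also gave 10, of which 6 were the same. With cycloheximide alone against no hormone, 0 members were called higher under all 21 alternatives. The count called lower was 0 to 1 over the arrays left out, the 1 being CG14190 without no hormone replicate 1, and 0 otherwise. For both agents against no hormone the count was 3, with 2 to 4 over the arrays left out: CG30089 was lost without no hormone replicate 1 or 20E plus cycloheximide replicate 3, and CG14570 was gained without no hormone replicate 2. With the replicate block, 0 members were called in either direction with cycloheximide alone and 3 were called higher with both agents, so the block changed no count. The log2 fold change of both agents over no hormone kept its call under all 20 alternatives for CG4998 (0.76 to 0.87) and CG12290 (0.67 to 0.78). Members near the limits differ from those left out by less than the spread of 3 arrays.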
